A study of Mus musculus with 7 samples.

Results

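The 10 genes described here are F3, F5, F8, F13a1, Plat, Plau, Plaur, Tfpi, Procr and Thbd. They were grouped as clotting and plasminogen system genes made outside hepatocytes. This grouping does not exclude hepatocytes as a source, or as the main source, of any of them, F5 included. The genes were chosen by name: a locus of the deposited table counts if its gene field names any of them. All 10 were found among 35534 loci, each at 1 locus that names no other gene. The table describes gonadal fat of CD-1 mouse pups, all male and at postnatal day 21. In the BDE-47 group (4 pups), the dams were fed the brominated flame retardant 2,2',4,4'-tetrabromodiphenyl ether in tocopherol-stripped corn oil at 0.2 mg/kg body weight per day, starting on pregnancy day 8 and ending on postpartum day 21. In the control group (3 pups), the dams received the oil alone on the same days. Every pup came from a different litter, fat was taken from the right side, and exposure reached the pups through the dam.

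Clotting starts when blood meets tissue factor on cells outside the vessel, which binds factor VII and sets off the chain of proteases that ends with thrombin and fibrin. Factors V and VIII speed this chain as cofactors, and factor XIII ties the fibrin strands together. The vessel wall holds the chain back through tissue factor pathway inhibitor and through thrombomodulin and the endothelial protein C receptor, which turn thrombin toward activating protein C. Fibrin is cleared by plasmin, which tissue-type and urokinase-type plasminogen activators release from plasminogen. Most zymogens of both systems are secreted by hepatocytes, whereas the genes of this set are used by endothelium, macrophages, fibroblasts and other cells, fat included.

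The deposited table gives 1 value per group on a log2 scale, in FPKM (fragments counted per locus, scaled by transcript length and by the reads mapped in a library). It holds no value of a single pup, so the spread between pups is unknown, no test across pups was possible, and every difference below is a difference of 2 group values. Library depth is unknown from the table. Log2 ratios are BDE-47 over control and carry a rounding error of up to 0.01. A ratio of at least 2-fold, the fold of the study's own filter, served as the mark for a large difference among the 14262 loci with a gene name and a level above 1 FPKM in either group. Of the 10 genes, 9 passed that filter, and F5 stayed just under it. Fat identity was clear from the adipocyte markers, with Fabp4 at 32996 and 31652 FPKM and Adipoq at 3692 and 3666 FPKM in control and BDE-47 fat.

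None of the 9 genes past the filter differed by 2-fold in either direction. Over all filtered loci, 4.24% were at least 2-fold lower and 1.04% at least 2-fold higher in BDE-47 fat, so 0 of 9 in each direction is near that background and is no result about these genes. Of the 9, 4 had a ratio above 0 and 5 a ratio below 0. Their median log2 ratio was −0.14, beside 0.01 over all filtered loci. The summed level of the 10 genes was 241.5 FPKM in control and 236.7 FPKM in BDE-47 fat. At a 1.5-fold mark, 1 of the 9 (Plaur) was lower and 1 (Tfpi) higher, where 8% and 2.73% of all filtered loci were. Behind the near-equal sum, Tfpi and Plaur stood furthest apart, in opposite directions.

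**Figure D1:**
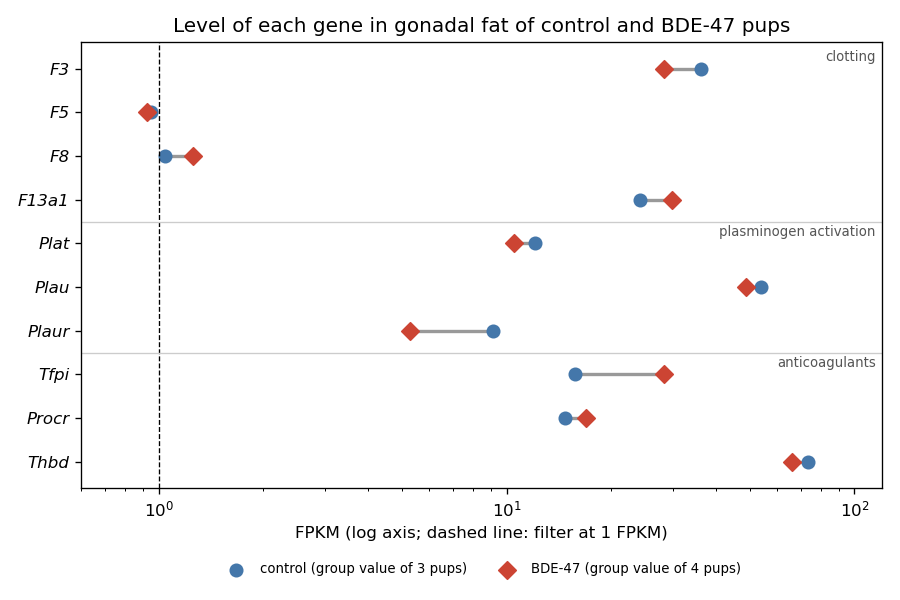
FPKM of each of the 10 genes (log axis) in control fat (blue circles, group value of 3 pups) and BDE-47 fat (red diamonds, group value of 4 pups); a group value carries no error bar because the table has no values per pup. The longest connecting lines are those of Tfpi (15.8 to 28.4 FPKM) and Plaur (9.13 to 5.28 FPKM), and F5 lies left of the dashed filter line at 1 FPKM in both groups.

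The levels ranged widely within the set, and their order was almost the same in both groups. Thbd had the highest level, 77.2 times that of F5 in control and 71.5 times in BDE-47 fat on the FPKM scale. In control fat the order was Thbd, Plau, F3, F13a1, Tfpi, Procr, Plat, Plaur, F8 and F5. In BDE-47 fat F13a1 moved ahead of F3, and F3 and Tfpi had the same listed value, 28.4 FPKM. Whether neighbours in this order differ beyond the spread between pups cannot be told from group values. Thbd and Plau were above 87.9% of filtered loci or more in each group, while F8 was above only 2.79% of them in control fat.

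To place the genes that moved furthest, the 250 bases before their annotated starts are shown, together with those of F3 and Procr, whose windows hold the same short motif as the Plaur window. Sequences are from RefSeq on GRCm38.p6, 5′ to 3′ along the gene; 7 of the 10 genes matched, with 9 start sites. Capitals mark matches, on either strand, to any of the motifs searched. The TATA box was searched as TATAAA and the GC box, known to bind Sp1, as GGGCGG. The AP-1 site was searched as TGACTCA and as TGAGTCA, its reverse complement. The motif known as CCAAT was searched by those letters, the E box as CACGTG, and the site of GATA factors as AGATAA. The HNF4 motif was searched as CAAAGTCCA, and the core that PPARs and other nuclear receptors bind as AGGTCA.
Tfpi, upstream start (chr2:84476760-84477009, minus strand): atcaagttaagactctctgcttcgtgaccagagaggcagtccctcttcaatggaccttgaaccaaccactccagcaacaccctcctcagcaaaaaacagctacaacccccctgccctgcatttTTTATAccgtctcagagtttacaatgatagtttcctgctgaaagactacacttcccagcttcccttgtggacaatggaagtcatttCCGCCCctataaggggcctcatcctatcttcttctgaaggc
Tfpi, downstream start (chr2:84474175-84474424, minus strand): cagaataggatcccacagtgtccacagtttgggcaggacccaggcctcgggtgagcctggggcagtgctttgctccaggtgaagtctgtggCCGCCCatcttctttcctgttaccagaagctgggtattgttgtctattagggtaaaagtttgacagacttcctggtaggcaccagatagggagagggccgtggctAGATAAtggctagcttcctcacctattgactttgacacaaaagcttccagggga
Plaur (chr7:24462233-24462482, plus strand): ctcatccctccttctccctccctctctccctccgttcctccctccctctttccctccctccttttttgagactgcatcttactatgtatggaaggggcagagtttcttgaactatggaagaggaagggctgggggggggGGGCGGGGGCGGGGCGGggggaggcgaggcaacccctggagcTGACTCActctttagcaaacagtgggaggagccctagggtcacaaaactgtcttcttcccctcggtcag
F3 (chr3:121723287-121723536, plus strand): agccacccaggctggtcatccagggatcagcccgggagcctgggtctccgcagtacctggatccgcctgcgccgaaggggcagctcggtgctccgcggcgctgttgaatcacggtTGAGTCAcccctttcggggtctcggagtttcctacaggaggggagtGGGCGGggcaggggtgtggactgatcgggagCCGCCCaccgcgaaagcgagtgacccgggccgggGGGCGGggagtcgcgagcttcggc
Procr (chr2:155750967-155751216, plus strand): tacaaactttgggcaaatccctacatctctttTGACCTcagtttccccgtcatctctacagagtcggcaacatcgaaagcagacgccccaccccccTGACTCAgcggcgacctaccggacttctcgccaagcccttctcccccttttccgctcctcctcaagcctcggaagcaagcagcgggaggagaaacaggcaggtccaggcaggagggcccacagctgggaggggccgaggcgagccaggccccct
In the Plaur window 3 GC boxes lie end to end, the second and the third sharing 1 base, and an AP-1 match TGACTCA stands 69 bases before the start. The F3 window has 3 GC boxes, 1 of them read on the other strand, and an AP-1 match TGAGTCA at 135 bases before the start. The Procr window has TGACTCA at 154 bases before the start and a nuclear receptor core, read as TGACCT. No AP-1 match is in the Tfpi windows or in those of F5, F8 and F13a1, which are not shown. For Tfpi, the upstream window has a TATA box match read as TTTATA and a GC box match, and the downstream one a GATA and a GC box match. Of all 32851 windows of this length, 4.46% hold an AP-1 match, 32.7% a GC box, 12.4% a TATA box, 9.99% a GATA site and 14% a nuclear receptor core. CCAAT matches occur in 33.8% of windows, E boxes in 6.02% and HNF4 motifs in 0.384%, and none of these 3 is in the windows shown. The genes that share the AP-1 letters did not share a direction: Plaur and F3 had log2 ratios of −0.79 and −0.35, and Procr had 0.20. A match describes letters only and does not show that a factor binds there.

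Among the clotting genes, F3 encodes tissue factor, the cell-surface trigger of the cascade. It measured 36.3 FPKM in controls and 28.4 FPKM in BDE-47 fat, a log2 ratio of −0.35. Of all filtered loci, 14.2% had a ratio as low or lower, so F3 was on the low side without standing apart. The gene has 6 exons in its longest annotated transcript and lies on the plus strand of chromosome 3 (chr3:121723536-121735052 in the deposited table, mm10).

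F13a1 encodes the A subunit of factor XIII, the transglutaminase that crosslinks fibrin, and resident tissue macrophages are a known source of it. It measured 24.3 FPKM in controls and 29.9 FPKM in BDE-47 fat, a log2 ratio of 0.30, and 9.54% of filtered loci had a ratio as high or higher. The macrophage markers leaned the other way in these samples: 9 of 11 had a ratio below 0, with a median log2 ratio of −0.30 and a summed level of 600.4 FPKM in control and 447.3 FPKM in BDE-47 fat. None of them was listed at 0. The 2 above 0 were Cd163 and Mertk (main locus), with log2 ratios of 0.08 and 0.19. Within the sum, Cd68 alone went from 131.6 to 70 FPKM. F13a1 was higher in the group in which most, but not all, of these markers were lower. The part of macrophage number in its value was not tested. In bulk tissue, fewer cells of a type and less RNA per cell cannot be told apart. The gene spans 15 exons on the minus strand of chromosome 13 (chr13:36867177-37050244), and annotated genes on the opposite strand (Gm30489 and Gm49144) overlap its exons. How the authors' counting treated strand is not given in the sources used here, so reads of such partners cannot be told apart.

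F5 and F8 encode the cofactors of the prothrombin- and factor X-activating complexes, and F8 is known to come from endothelial cells. F8 measured 1.04 FPKM in controls and 1.26 FPKM in BDE-47 fat, a log2 ratio of 0.27. F5 was at 0.953 and 0.927 FPKM, giving a log2 ratio of −0.04. Both levels were at the edge of the filter, where small absolute differences make large ratios, and adding 1 FPKM to both groups brought the F8 log2 ratio to 0.14. F8 has 26 exons on the minus strand of the X chromosome (chrX:75172714-75380041). F5 has 25 exons on the plus strand of chromosome 1. The position the table lists for F5 (chr1:164115263-164220277) begins 36575 bases before the annotated gene and is the same as that listed for Selp, the P-selectin gene, at 3.58 and 3.51 FPKM. The table keeps separate values for both, but does not show how reads between them were assigned.

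Among the partners of these cofactors, Vwf had the largest ratio. Of 4 genes for carriage and secretion of factors V and VIII, 0 passed 2-fold in either direction, near the background of 4.24% lower and 1.04% higher, with a median log2 ratio of 0.13. Vwf, the von Willebrand factor gene, whose protein carries factor VIII in plasma, was at 10.5 and 13.9 FPKM, giving a log2 ratio of 0.41. Mcfd2 and Lman1 encode the cargo receptor that brings both cofactors out of the endoplasmic reticulum. Mcfd2 was at 58.1 and 56.5 FPKM, and Lman1 at 29.7 and 29.9 FPKM. The level of Vwf was 10.1 times that of F8 in control and 11.1 times in BDE-47 fat.

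All 3 genes of plasminogen activation had a ratio below 0. Plau, which encodes urokinase-type plasminogen activator, measured 53.8 FPKM in controls and 48.8 FPKM in BDE-47 fat, a log2 ratio of −0.14. Plat, which encodes tissue-type plasminogen activator, was at 12 and 10.5 FPKM, giving a log2 ratio of −0.20. The proportion of the 2 activators was thus nearly constant, with the Plau level 4.47 times that of Plat in control and 4.66 times in BDE-47 fat. For Plau 27.6% of filtered loci had a ratio as low or lower, and for Plat 21.9%.

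Plaur, which encodes the urokinase receptor that holds the activator at the cell surface, had the lowest ratio of the set. It measured 9.13 FPKM in controls and 5.28 FPKM in BDE-47 fat, a log2 ratio of −0.79, or 1.73-fold lower. Of all filtered loci, 5.76% had a ratio as low or lower, and 3.2% of the loci above 5 FPKM. The receptor level was 0.17 times that of Plau in control and 0.108 times in BDE-47 fat. Plaur is known in monocytes, macrophages and neutrophils, and most markers of these cells had ratios below 0 in the same samples. Of the 11 macrophage markers, 9 were below 0 and 2 above (Cd163 and Mertk, with log2 ratios of 0.08 and 0.19). None passed 2-fold, near the 4.24% lower and 1.04% higher of all filtered loci. Another Mertk locus was at 7.78 and 6.5 FPKM, lower in BDE-47 fat. Of these markers, C1qa was at 121.1 and 97 FPKM and C1qc at 117 and 95 FPKM. Cd68, named after its values were seen because it had the lowest ratio of the 11 (−0.91), was at 131.6 and 70 FPKM. Of 6 monocyte and neutrophil markers, 5 had a ratio below 0 and 2 were at least 2-fold lower, beside 4.24% of all filtered loci, with a summed level of 189.5 and 157.3 FPKM and none at 0. Their most abundant members were the locus that joins Ly6c2 with Ly6c1 and Ly6i (112.2 and 117.8 FPKM) and S100a8 (47.8 and 20.3 FPKM). The part of these cells in the Plaur value was not tested. Plaur has 7 exons on the plus strand of chromosome 7 (chr7:24462499-24476044), Plau 11 exons on chromosome 14 (chr14:20836661-20843388) and Plat 14 exons on chromosome 8 (chr8:22757721-22782848), and no annotated gene overlaps any of the 3.

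Of the genes around the activators, the receptors had ratios below 0, some of them barely so, and the inhibitors differed in direction. Serpine2, which encodes protease nexin-1, an inhibitor of thrombin and of the activators, was at 33.4 and 24.8 FPKM in control and BDE-47 fat, giving a log2 ratio of −0.43. Serpinb2, which encodes plasminogen activator inhibitor-2, was the 1 gene of 21 filtered extrahepatic pathway genes outside the set that passed 2-fold. It measured 0.275 FPKM in controls and 1.01 FPKM in BDE-47 fat, only just over the filter in the group where it was higher. Serpini1 (neuroserpin) stayed under the filter, with 0.233 and 0.441 FPKM. All 5 plasminogen and activator receptor genes had a ratio below 0, with a median log2 ratio of −0.24. Plgrkt and Lrp1 were at −0.02, little beyond the rounding error. Another Plgrkt locus was at 1.83 and 2.66 FPKM, higher in BDE-47 fat. Of the 5 genes, 0 passed 2-fold, near the 4.24% lower and 1.04% higher of all filtered loci. Anxa2 and S100a10, whose proteins form a plasminogen receptor, were at 1278 and 1082 FPKM and at 580 and 427.6 FPKM, and Lrp1, which clears activator and inhibitor complexes, was at 65.8 and 64.9 FPKM.

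The 3 anticoagulant genes of the set did not move as a block. Tfpi encodes tissue factor pathway inhibitor, a Kunitz-type inhibitor that blocks tissue factor with factor VIIa and factor Xa, and it had the highest ratio of the set. It measured 15.8 FPKM in controls and 28.4 FPKM in BDE-47 fat, a log2 ratio of 0.85, or 1.8-fold higher. Of all filtered loci, 1.41% had a ratio as high or higher, and 0.951% of the loci above 5 FPKM. Tfpi lies on the minus strand of chromosome 2 (chr2:84432859-84476850) with 10 annotated transcripts, of up to 10 exons. The locus value adds its transcripts together, so forms of the inhibitor that differ in their ends cannot be told apart.

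Procr, which encodes the endothelial protein C receptor, measured 14.7 FPKM in controls and 16.9 FPKM in BDE-47 fat, a log2 ratio of 0.20. Thbd, which encodes thrombomodulin, was at 73.5 and 66.3 FPKM, giving a log2 ratio of −0.15. The receptor and thrombomodulin act on the same step, yet their ratios had opposite signs; both were small, with 17.6% of filtered loci as high or higher for Procr and 26.7% as low or lower for Thbd. Thbd is a gene of 1 exon on the minus strand of chromosome 2 (chr2:148404470-148408188), and Procr has 4 exons on the plus strand of the same chromosome (chr2:155751216-155755478).

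The proportion of the inhibitor Tfpi to its target F3 differed between the groups. The Tfpi level was 0.435 times that of F3 in control fat and equal to it in BDE-47 fat, a change of 2.3-fold in the proportion, to which a higher Tfpi and a lower F3 both contributed. The pair was chosen after the values were seen and is a description without a test. For comparison, the Thbd level was 2.03 times that of F3 in control and 2.33 times in BDE-47 fat. Tfpi2, a related Kunitz-type inhibitor, was at 3.12 and 2.55 FPKM, giving a log2 ratio of −0.29, so the higher value of Tfpi did not extend to it. The other vessel-wall anticoagulants were Pros1, the protein S gene (35 and 32.2 FPKM), and Entpd1, which encodes an ectonucleotidase that removes platelet-activating ADP (11.1 and 11.7 FPKM).

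**Figure D2:**
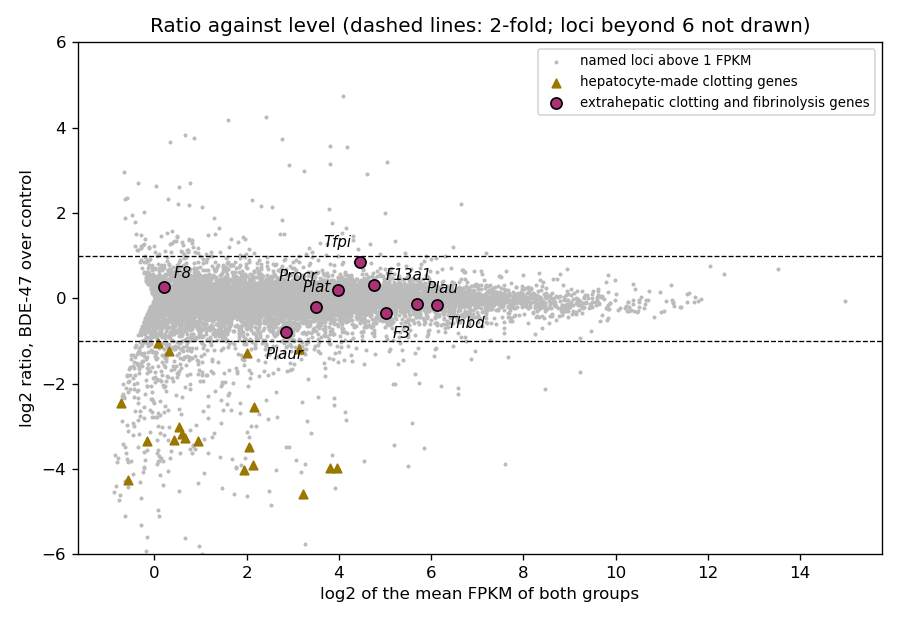
Log2 ratio of BDE-47 over control (vertical axis) against the log2 of the mean FPKM of both groups (horizontal axis) for named loci above 1 FPKM (grey); circles are the 9 genes of the set past the filter, triangles the hepatocyte-made clotting genes past the filter with a value above 0 in both groups. The circles lie between −0.79 and 0.85, inside the dashed 2-fold lines, and the triangles lie at −1.05 or lower.

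Endothelial cells are the best-known source of Thbd, Procr, Tfpi, F8 and Plat, and their markers had slightly higher values in BDE-47 fat. Of 10 endothelial markers, 8 had a ratio above 0, 1 below and 1 equal, with a median log2 ratio of 0.23 and a summed level of 407.8 FPKM in control and 444.8 FPKM in BDE-47 fat. None was listed at 0 and none was past 2-fold, near the 4.24% lower and 1.04% higher of all filtered loci. Cdh5 was at 74.5 and 80.4 FPKM and Pecam1 at 67.6 and 73 FPKM. Procr (0.20) and F8 (0.27) had log2 ratios like these markers, Tfpi (0.85) was above the highest of them (0.50), Plat (−0.20) was below the lowest (−0.17), and Thbd (−0.15) was near it. Mesothelial markers, which can come with the surface of a fat pad, had a median log2 ratio of 0.47, with 6 of 7 above 0 and a summed level of 95.1 and 143.2 FPKM, none at 0. Upk3b was at 28.4 and 49.5 FPKM and Krt19 at 19.8 and 26.9 FPKM. The part of either cell type in the Tfpi value was not tested.

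Of the other lists of cell markers, fat progenitor markers were balanced, with 4 of 9 above 0, 5 below and a median log2 ratio of −0.02 (Dcn at 584.1 and 576 FPKM, and the locus that joins Ly6a and Ly6c1 at 112.2 and 101.8 FPKM). Of 9 smooth muscle and pericyte markers, 6 were above 0 and 2 past 2-fold higher, beside 1.04% of all filtered loci, although the most abundant, Tagln (154.3 and 157.6 FPKM) and Acta2 (140.1 and 129.8 FPKM), were near equal. Platelets carry factors V and XIII. Of 4 platelet markers past the filter, 3 were below 0 and 1 past 2-fold lower, beside 4.24% of all filtered loci. Pf4 was at 55.7 and 43.4 FPKM, and the locus that joins Gp1bb and Sept5 at 7.84 and 8.75 FPKM. Under the filter, Gp9, Gp6 and Treml1 had higher values in BDE-47 fat, and Gp1ba and Gp5 lower ones. Adipocyte markers had a median log2 ratio of 0.09 with 6 of 10 above 0. Of the most abundant, Fabp4 had a log2 ratio of −0.06, and Cfd, at 4182 and 6252 FPKM, had 0.58.

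**Figure D3:**
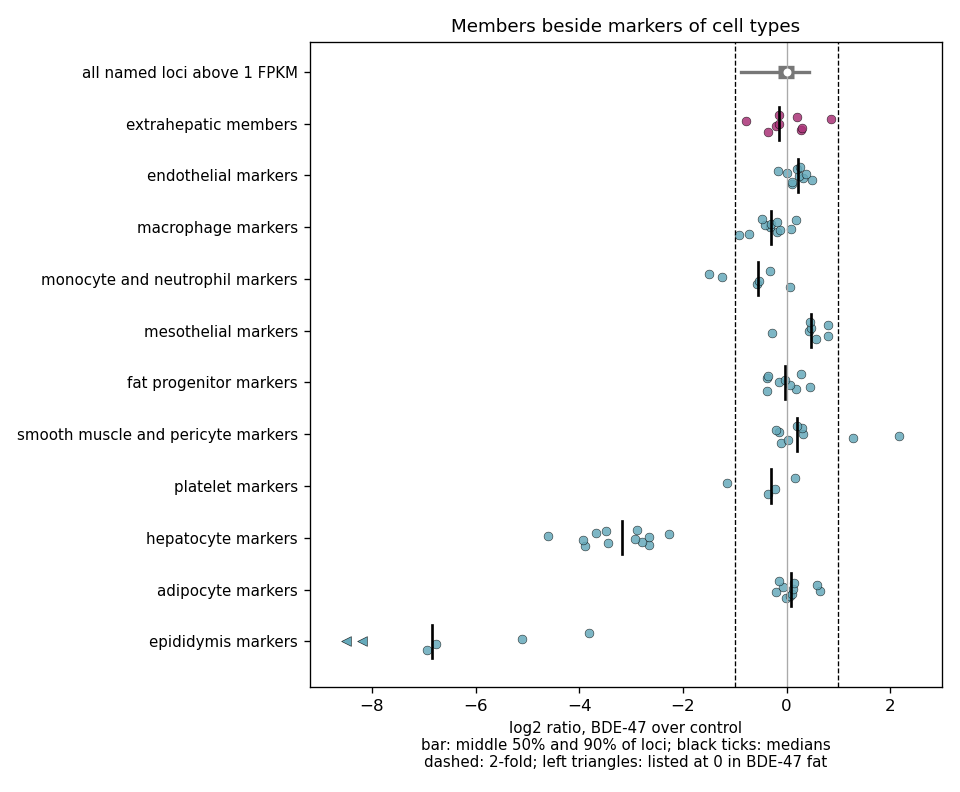
Log2 ratio of BDE-47 over control for the 9 genes of the set past the filter and for each list of cell type markers (points, 1 per locus past the filter; black ticks, medians), below the spread of all named loci above 1 FPKM (thick bar, middle 50%; thin bar, middle 90%). The set spreads from −0.79 to 0.85 around 0, whereas the hepatocyte markers lie between −4.60 and −2.27 and epididymis markers lie at −3.82 or lower, 2 of them listed at 0 in BDE-47 fat (triangles at the left edge).

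The clotting genes made by hepatocytes had far lower values in BDE-47 fat; the difference between this list and the set was not tested. Of 23 such genes, 20 passed the filter, and of these 20 had values at least 2-fold below control and 0 above, beside 4.24% and 1.04% of all filtered loci, with a median log2 ratio of −3.34. Of the 20, 15 passed the filter through control fat alone and 5 were above 1 FPKM in both groups. Without the filter all 23 were at least 2-fold lower, 12 of them at least 10-fold or listed at 0. The most abundant were the fibrinogen chain genes Fgb (29.2 and 1.84 FPKM), Fgg (26.2 and 1.67 FPKM) and Fga (18 and 0.747 FPKM) and F11, whose main locus was at 28.2 FPKM in control and listed at 0 in BDE-47 fat. Hepatocyte markers moved the same way: 12 of 12 were at least 2-fold lower, beside 4.24% of all filtered loci. Of these, Tat, Cps1 and Hnf4a passed the filter through control fat alone, so they could only come out lower. The summed level of the 12 was 709.7 FPKM in control and 60.8 FPKM in BDE-47 fat, with none at 0. Alb was at 362 and 24.6 FPKM and Fabp1 at 85 and 11.2 FPKM. Epididymis markers went from a summed 44.6 to 0.448 FPKM, with 1 of 9 listed at 0 in control and 3 in BDE-47 fat. Past the filter, 6 of 6 were lower by 2-fold or more, beside 4.24% of all filtered loci. All 6 passed through control fat alone, so they could only come out lower. Under the filter, Adam28 (0.013 and 0.0533 FPKM) and Cst8 (0 and 0.0559 FPKM) had higher values in BDE-47 fat. The most abundant epididymis markers were the locus that joins Crisp1 and Crisp3 (18.6 and 0.171 FPKM) and Defb38 (10.9 FPKM, and listed at 0). The part of these tissues in the hepatocyte-made clotting genes was not tested.

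Between these extremes stood F7 and F10, whose products act with tissue factor. Proz and Kng2 of the same list stood there as well, with log2 ratios of −1.05 and −1.23. F7 measured 12.2 FPKM in controls and 5.35 FPKM in BDE-47 fat and F10 at 5.7 and 2.35 FPKM, 2.28-fold and 2.43-fold lower, and both were named after their values were seen. The F3 level was 2.97 times that of F7 in control and 5.31 times in BDE-47 fat, so trigger and partner were lower to unequal degrees.

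The remaining genes outside hepatocytes were read the same way. Over 6 lists, 21 of 23 genes passed the filter, 0 passed 2-fold downward and 1 (Serpinb2) upward, near the 4.24% and 1.04% of all filtered loci, with a median log2 ratio of −0.03 and a range from −0.66 to 1.87. The vitamin K cycle, which equips clotting factors to bind calcium, had a median log2 ratio of −0.03, with Vkorc1 at 78.2 and 69.6 FPKM, Vkorc1l1 at 26.7 and 26.2 FPKM and Ggcx at 16.2 and 16 FPKM. Of the protease-activated receptors, F2r, the main thrombin receptor of stromal cells, was at 15.8 and 9.99 FPKM, giving a log2 ratio of −0.66 and the lowest of these 21 genes. F2rl1 (1.13 and 1.26 FPKM) and F2rl3 (0.979 and 1.13 FPKM) were at the edge of the filter.

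**Figure D4:**
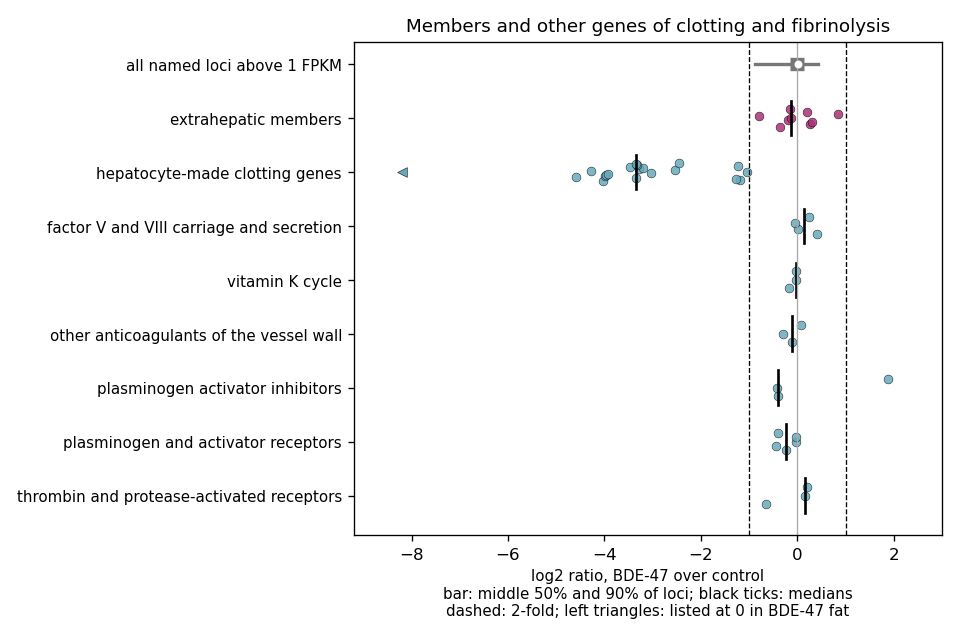
Log2 ratio of BDE-47 over control for the 9 genes of the set past the filter and for 7 other lists of clotting and fibrinolysis genes (points, 1 per locus past the filter; black ticks, medians), below the spread of all named loci above 1 FPKM (thick bar, middle 50%; thin bar, middle 90%). The hepatocyte-made list lies left of the 2-fold line, with F11 (triangle) listed at 0 in BDE-47 fat, and the set and the other lists lie between the 2-fold lines except Serpinb2 at 1.87.

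By median size, the log2 ratios of the set were somewhat larger than those of all filtered loci, a difference that was not tested. The median size of the log2 ratio, without its sign, was 0.27 over the 9 genes and 0.15 over all filtered loci, and 2 of the 9 fell within the middle 50% of ratios, which ran from −0.16 to 0.14. Within the middle 90%, from −0.87 to 0.43, lay 8 of the 9, with Tfpi as the exception. Among loci above 5 FPKM, where the spread is narrower (middle 90% from −0.56 to 0.35), 6 of 8 genes lay inside and Tfpi and Plaur outside. These positions describe the group values and say nothing of the spread between pups.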

How the data were processed

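Poly(A) RNA of gonadal fat was sequenced as 75-cycle single-end reads. By the study's methods and the processing notes of the submitters, reads were aligned to mm10 by TopHat2, transcripts were built by Cufflinks 2.1.1, and Cuffdiff 2.1.1 compared the groups. The authors dropped 1 control library for its smaller number of reads. Which annotation, strand option and scaling across libraries they used is not given in the sources used here. In the table, the authors deposited per locus, the log2 FPKM of each group, pooled over its libraries, and the authors' own log2 ratio, q value, test status and significance call, none of which was used. 1 line of the table was empty, and 0 columns of single pups were left unused. A value of −10 was read as 0 FPKM, and no fold was computed against it.

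Ratios were computed from both group columns without a pseudocount. Loci were kept if named and if either group exceeded 1 FPKM, and a gene named by several loci took the one with the highest mean. No test was run, since replicate values are needed for one. The members and lists were chosen with earlier results of these data known. All members are named. Of each pathway list, up to 4 genes past 2-fold with the highest mean FPKM were to be named, or else the most abundant up to 3. Of each marker list, the 2 most abundant were to be named. Some further genes, such as Adipoq, are named besides these. The counting steps were tested on simulated data. Results for some genes of these lists are left out here. Sequences are from RefSeq (GRCm38.p6) and gene positions from GENCODE vM21. Alternatives changed the filter, pseudocount, scaling, locus choice, joined loci and fold. Python 3.11.15, pandas 2.3.3, numpy 2.4.6 and matplotlib 3.10.9 were used.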

Additional observations from a re-analysis of the deposited data

How the results depend on the processing

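The counts of clotting and fibrinolysis genes past 2-fold stayed at 0 in both directions under 8 of 9 alternatives. With a 1.5-fold threshold, 1 gene (Plaur) was lower and 1 gene (Tfpi) was higher, where 8% and 2.73% of all filtered loci pass that fold, and 1 protease-activated receptor gene (F2r) was lower. The median log2 ratio of the set stayed between −0.15 and −0.09. The log2 ratios of single genes kept their sign in 72 of 72 recomputed values, and 70 of 72 moved by no more than 0.1. The exceptions, with 1 FPKM added to both groups, were F8 (0.14) and Plaur (−0.69). These ratios had little room to change. Each gene has 1 locus that names no other gene, so the filter and locus choices could not alter its ratio. A pseudocount cannot turn a sign or enlarge a ratio, and centring shifted ratios by only 0.01. The kept signs and the counts of 0 are therefore no evidence of stability. Above 5 FPKM, 10 of 10 hepatocyte-made clotting genes were at least 2-fold lower, the count being smaller because fewer genes were tested. With 1 FPKM added to both groups 17 of 20 were, and with 0.1 FPKM added 19 of 20. The higher value of Serpinb2 was no longer counted above 5 FPKM or with 1 FPKM added, with 0 plasminogen activator inhibitor genes past 2-fold in each case. No paired analysis was possible because the table holds group values only, and for the same reason no replicate could be left out. The table gives no library depths, and the levels near 1 FPKM (F5, F8, Serpinb2) are the least certain.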

Other observations

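Several genes of the lists are named by more than 1 locus, whose values can differ in direction. Serpinc1, the antithrombin gene, had a locus at 7.62 and 1.31 FPKM in control and BDE-47 fat and another at 1.19 and 1.49 FPKM. F11 had, beside the locus listed at 0 in BDE-47 fat, another at 0.683 and 0.0369 FPKM. Both F7 loci (12.2 and 5.35 FPKM, and 1.14 and 0.582 FPKM) and both Proz loci (1.42 and 0.688 FPKM, and 1.21 and 0.379 FPKM) were lower in BDE-47 fat.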
